A study of Mus musculus with 6 samples.

Results

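The cholesterol and fatty acid synthesis genes described here are 31 genes chosen by symbol as enzymes and regulators of these pathways, each read at its probe of highest signal, out of 17016 genes measured on the arrays. They comprise 16 enzymes of sterol synthesis, 9 enzymes of fatty acid synthesis, elongation and desaturation, and 6 regulators and carriers of sterols. Their expression was read from 1-colour Agilent arrays of mouse pluripotent cells of 3 kinds, kept with or without SB431542, an inhibitor of the type I receptor kinases for Activin, Nodal and TGF-beta. The groups were E3.5 epiblast stem cells (EpiSCs) with SB431542, E3.5 EpiSCs, E5.5 EpiSCs with SB431542, E5.5 EpiSCs, mouse embryonic stem (mES) cells with SB431542, and mES cells, with 1 array each. All cells were of strain 129 and were grown in Knockout DMEM with 20% KSR, a serum replacement. Treated cells received 20 µM SB431542 daily for 4 days. The E3.5 EpiSC line came from pre-implantation embryos and the E5.5 line from post-implantation embryos, and the mES cells are labelled E3.5. Each EpiSC stage is 1 line in these data, so the results describe these lines.

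Cholesterol is built from acetyl-CoA through mevalonate, isoprenoid diphosphates, squalene and lanosterol. Fatty acids are built from the same acetyl-CoA by a carboxylase and a synthase and are then elongated and desaturated. Most of these enzymes are targets of the sterol regulatory element binding proteins encoded by Srebf1 and Srebf2. When membrane sterol is low, the escort protein Scap carries these factors from the endoplasmic reticulum to the Golgi, where they are cleaved and released to the nucleus. The Insig proteins retain Scap when sterol is high, and Insig1 is itself a target of the factors it restrains.

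The promoters of 5 members are printed because they belong to genes with large differences between treated and untreated EpiSCs (Insig1, Lss, Mvd) or hold the core of the sterol regulatory element (Hmgcs1, Srebf2). Each window runs from 250 bases before to 50 bases after the annotated start of transcription, on the strand of the gene, from RefSeq on build GRCm38.p6. Capitals mark the letters searched on both strands: TCACNCCA (sterol regulatory element core), CCAAT (the box bound by NF-Y) and GGGCGG (the GC box bound by Sp1).
Insig1 (chr5:28071162-28071461, plus strand): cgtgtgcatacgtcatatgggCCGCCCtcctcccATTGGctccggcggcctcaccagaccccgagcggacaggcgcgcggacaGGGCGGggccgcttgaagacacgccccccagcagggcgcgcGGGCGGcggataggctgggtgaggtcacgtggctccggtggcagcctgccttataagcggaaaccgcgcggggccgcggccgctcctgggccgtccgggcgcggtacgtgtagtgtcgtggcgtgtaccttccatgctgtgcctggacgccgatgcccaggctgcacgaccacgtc
Lss (chr10:76531355-76531654, plus strand): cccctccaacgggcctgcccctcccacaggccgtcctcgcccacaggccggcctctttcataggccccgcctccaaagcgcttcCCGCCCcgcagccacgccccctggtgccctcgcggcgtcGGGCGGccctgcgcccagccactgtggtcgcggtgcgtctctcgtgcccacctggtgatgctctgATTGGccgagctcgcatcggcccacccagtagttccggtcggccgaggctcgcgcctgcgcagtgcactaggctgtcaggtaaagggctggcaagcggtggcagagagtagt
Mvd (chr8:122443373-122443672, minus strand): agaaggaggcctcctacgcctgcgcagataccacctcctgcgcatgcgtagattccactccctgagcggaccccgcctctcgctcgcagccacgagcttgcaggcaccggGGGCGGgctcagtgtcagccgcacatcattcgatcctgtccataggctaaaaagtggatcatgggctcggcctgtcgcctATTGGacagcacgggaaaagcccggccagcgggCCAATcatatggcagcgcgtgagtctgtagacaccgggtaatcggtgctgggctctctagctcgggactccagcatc
Hmgcs1 (chr13:119690101-119690400, plus strand): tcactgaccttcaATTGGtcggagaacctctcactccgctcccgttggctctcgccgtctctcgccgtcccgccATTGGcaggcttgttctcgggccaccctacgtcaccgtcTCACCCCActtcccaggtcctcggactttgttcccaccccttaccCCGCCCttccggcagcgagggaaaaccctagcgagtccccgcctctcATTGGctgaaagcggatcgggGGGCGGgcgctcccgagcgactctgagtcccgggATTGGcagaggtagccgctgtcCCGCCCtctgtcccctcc
Srebf2 (chr15:82147019-82147318, plus strand): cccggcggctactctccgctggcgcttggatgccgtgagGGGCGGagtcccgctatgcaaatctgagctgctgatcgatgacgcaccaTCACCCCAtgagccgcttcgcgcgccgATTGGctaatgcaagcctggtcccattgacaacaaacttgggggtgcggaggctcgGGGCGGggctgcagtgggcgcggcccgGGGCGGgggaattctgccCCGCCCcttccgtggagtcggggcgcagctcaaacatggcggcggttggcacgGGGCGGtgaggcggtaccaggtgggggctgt

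The element core began at position -137 from the start of Hmgcs1 and at -162 from that of Srebf2. It lay in 2 of 32 member windows (6.25%), against 4.362% of all 32851 promoter windows of the same length. CCAAT lay in 20 of the 32 windows (62.5%), against 37.41% of all windows, and GGGCGG in 23 (71.88%), against 35.66%. The windows covered 24 of the 31 members, some with several start sites. The other 7, for which no window was used here, were Fdps, Fdft1, Sqle, Stard4, Scd1, Scd2 and Fads1. A match is a description of letters, and none of these searches measured binding.

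A level here is the log2 signal of a probe minus the log2 of its array's 75th percentile, so a level of 0 equals that percentile. Levels of members are compared between arrays, never between genes. The marker sums below add signals over genes, so the brightest probes weigh most in them. Every member was well above background on all 6 arrays. Per array, 82.6% to 85.7% of spots were above background, and precision is limited by there being 6 arrays in all. The array of treated E3.5 EpiSCs stood apart in brightness, with a 75th percentile of 1803 intensity units, against 1194 to 1462 on the others. The 4 arrays of mES cells and E5.5 EpiSCs shared 1 slide, whereas the treated and untreated E3.5 EpiSC arrays lay on a slide each. Treatment and slide cannot be told apart within the E3.5 pair.

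The label of the treated EpiSCs went against their markers. The summed signal of 4 pluripotency markers was taken relative to the 75th percentile. It was 6.92 and 7.14 in treated E3.5 and E5.5 EpiSCs, against 69.8 and 79.3 in the untreated lines. Of these markers, 3 were lower in both treated lines and 1, Sox2, was higher. Sox2 had levels of 2.77 and 2.79 in treated lines, against 2.10 and 2.47 in untreated ones, and gave most of the treated sums. The sum of 4 EpiSC markers was 0.35 and 0.45 in treated lines, against 20.3 and 37.2 in untreated lines. That of 5 neural markers was 105.0 and 97.0 in treated lines, against 1.40 and 1.53 in untreated lines, with Hes5 and Zic1 giving nearly all of it. Fibroblast markers summed to 142.8 and 169.5 in treated EpiSCs, against 95.5 and 119.5 in untreated ones. Vim, which gave the largest part of these sums on the treated arrays, had levels of 6.59 and 6.54 in treated lines, against 5.88 and 5.28 in untreated ones. The 10 fibroblast markers did not share a direction: 8 were higher with SB431542 in the E3.5 pair and 8 were lower in the E5.5 pair. In mES cells the pluripotency sum was 68.9 with SB431542 and 80.4 without it, and the neural sum was 1.105 with and 0.830 without it. Whether this shift in markers plays a part in the differences described next was not tested. In these bulk samples, fewer cells of a type and less RNA per cell cannot be told apart.

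To ask what SB431542 did in EpiSCs, both treated lines were set against both untreated lines. Sterol synthesis genes were mostly lower with SB431542: 10 of 16 had both treated levels below both untreated levels, and 1, Acat2, had both above. The background for lower levels without overlap was 36.6% of all genes tested, and for higher levels it was 20.5%. Of the fatty acid genes, 3 of 9 (33.3%) were below and 2 of 9 (22.2%) were above, both shares near these backgrounds. Among regulators and carriers, 4 of 6 were below and 1 was above. Under normexp, 11 of 16 sterol genes were below without overlap, against 7254 of all 16153 genes tested. After quantile normalization 9 of 16 were, against 5316 of all genes. No member passed the test at an adjusted p of 0.05 (limma, Benjamini-Hochberg over 16153 genes), whereas the table as a whole held 144 higher calls (0.891%) and 194 lower calls (1.2%). Those 338 calls were 0 without the treated E3.5 array, 0 without the treated E5.5 array, 197 without the untreated E3.5 array and 248 without the untreated E5.5 array. At an unadjusted p under 0.05, 9 of 31 members were lower, against a background of 11.6%, and none was higher, against 8.26%. With the line as a block, which left 1 residual degree of freedom, 511 genes were called lower (3.16%) and 392 higher (2.43%). Again no member was called. The median difference was -0.70 over the sterol genes, -0.25 over the fatty acid genes and -0.61 over the regulators and carriers, against -0.19 over all genes tested. Without the treated E3.5 array, these medians were -0.59, -0.02 and -0.40, against -0.06 over all genes tested. Without the untreated E5.5 array the fatty acid median was -0.48, against -0.20 over all genes tested.

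**Figure D1:**
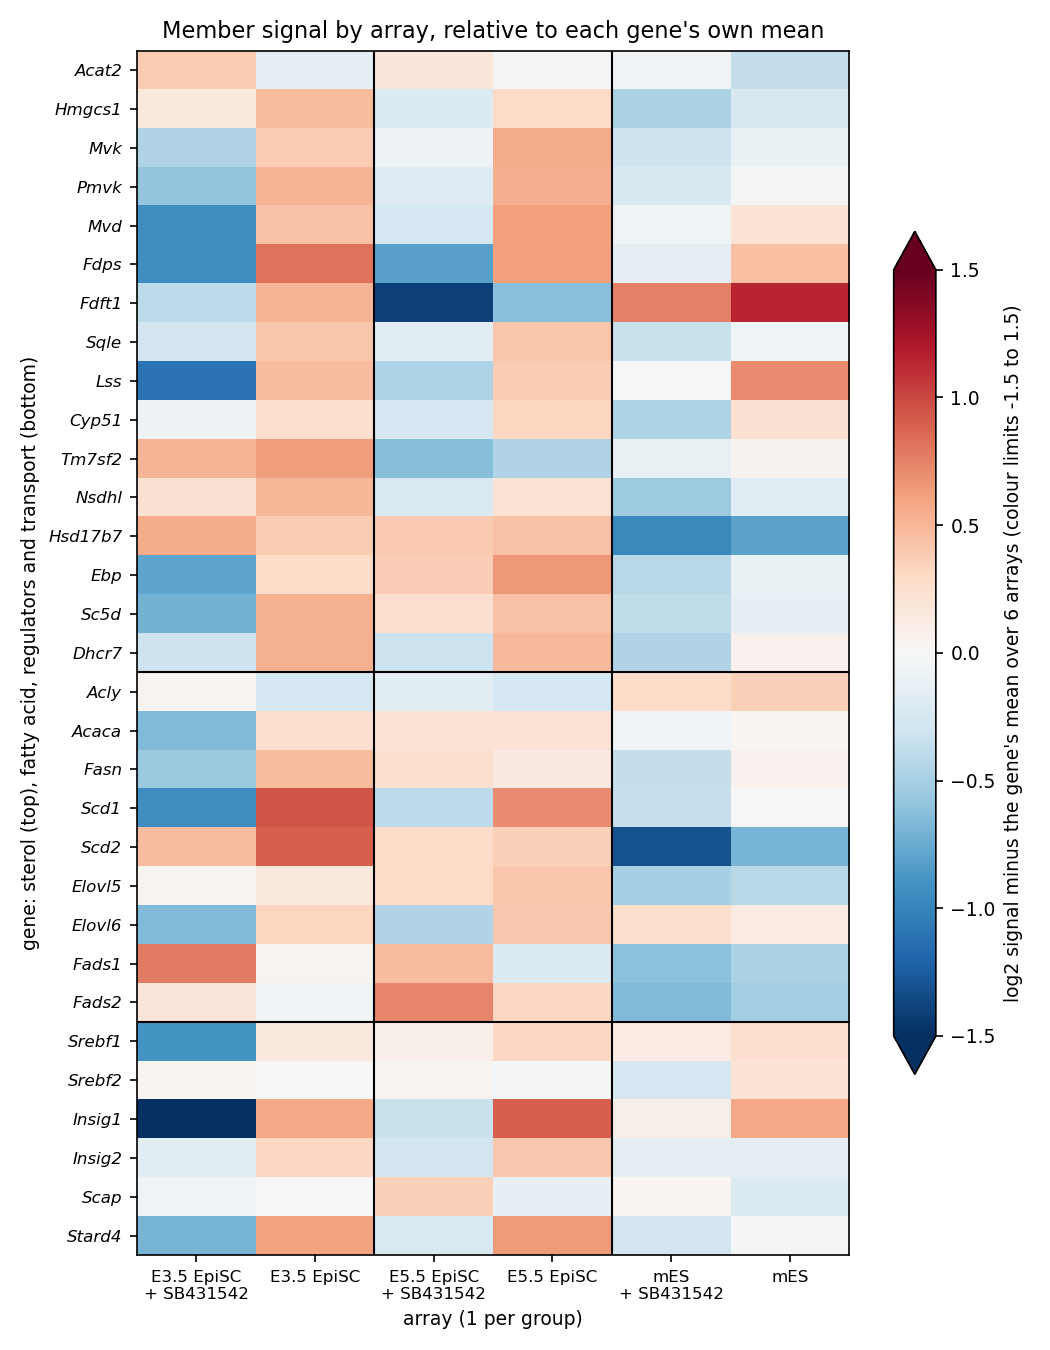
Log2 signal of each of the 31 members (rows) on each of the 6 arrays (columns), minus the gene's own mean over the arrays, in colour with limits of -1.5 and 1.5. In the sterol block, both treated EpiSC columns lie below both untreated EpiSC columns for 10 of 16 genes, and Fdft1, Tm7sf2 and Hsd17b7 follow the line or the cell class.

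The first enzymes of the mevalonate pathway behaved differently from each other. Acat2, the thiolase that joins 2 acetyl-CoA units, had levels of 0.05 and -0.14 in treated E3.5 and E5.5 EpiSCs, against -0.46 and -0.34 in the untreated lines, and -0.37 in treated against -0.67 in untreated mES cells. It was the 1 member higher with SB431542 in all 3 lines, where the background was 15.4%, and its EpiSC difference was 0.36 ± 0.26 (SE, limma adjusted p = 0.48). Hmgcs1, which makes HMG-CoA, had levels of 4.74 and 4.39 in treated E3.5 and E5.5 EpiSCs, against 5.06 and 4.88 in untreated ones. Its treated levels lay below both untreated levels, with a gap smaller than the distance between the untreated lines.

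The 3 enzymes that turn mevalonate into isopentenyl diphosphate were each lower in both treated EpiSC lines. Mvk, mevalonate kinase, had levels of -0.13 and 0.25 in treated E3.5 and E5.5 EpiSCs, against 0.71 and 0.89 in untreated ones. Pmvk, phosphomevalonate kinase, had 2.80 and 3.21 in treated lines, against 3.90 and 3.94 in untreated lines. Mvd, the decarboxylase, had 0.36 and 1.03 with SB431542, against 1.73 and 1.90 without. In all 3 genes the treated E3.5 line was the lowest of the 4 EpiSC arrays. In mES cells the same genes differed by -0.22, -0.22 and -0.28, each lower with SB431542. The EpiSC difference of Mvd was -1.12 ± 0.34 (SE, limma adjusted p = 0.18).

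Fdps, farnesyl diphosphate synthase at the branch point between sterols and other isoprenoids, came closest to a call. Its levels were 2.66 and 2.79 in treated E3.5 and E5.5 EpiSCs, against 4.42 and 4.22 in the untreated lines, and 3.47 in treated against 4.05 in untreated mES cells. The lines differed from each other by far less than treated from untreated cells. The EpiSC difference was -1.59 ± 0.26 (SE, limma adjusted p = 0.067). With the line as a block, and 1 residual degree of freedom, the limma adjusted p was 0.053. Among genes above background on all 6 arrays alone, 540 were called in place of 338, and Fdps was among them with an adjusted p of 0.043 (limma).

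Downstream, the squalene enzymes were lower in treated cells of all 3 lines. Fdft1, squalene synthase, had levels of 1.46 and 0.45 in treated E3.5 and E5.5 EpiSCs, against 2.36 and 1.22 in untreated ones, and 2.61 in treated against 2.99 in untreated mES cells. Here the treated E3.5 line lay above the untreated E5.5 line, so the EpiSC groups overlapped. A further Fdft1 probe gave an EpiSC difference of -0.35, where the probe used gave -0.83. Sqle, squalene epoxidase, had 2.37 and 2.50 in treated EpiSC lines, against 3.07 and 3.07 in untreated ones. Lss, lanosterol synthase, had -0.09 and 0.55 in treated E3.5 and E5.5 EpiSCs, against 1.47 and 1.39 in untreated ones, and 1.01 in treated against 1.71 in untreated mES cells. For Lss the treated E3.5 line was the lowest of all 6 arrays, and the EpiSC difference was -1.20 ± 0.33 (SE, limma adjusted p = 0.16).

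Of the enzymes that convert lanosterol to cholesterol, 3 of 7 were lower without overlap in treated EpiSCs, a share near the background of 36.6%. Cyp51, the lanosterol demethylase, had levels of 0.08 and -0.09 in treated EpiSC lines, against 0.42 and 0.48 in untreated lines. Dhcr7, the reductase of the last step, had 3.14 and 3.13 in treated EpiSC lines, against 3.98 and 3.93 in untreated lines, and 2.996 in treated against 3.519 in untreated mES cells. The EpiSC difference of Dhcr7 was -0.82 ± 0.25 (SE, limma adjusted p = 0.19). Its probe used gave -0.84 in the E3.5 pair and -0.80 in the E5.5 pair, and a further probe gave -0.50 and -0.83 for these pairs. Sc5d, a sterol desaturase, differed by -1.24 in the E3.5 pair and by -0.20 in the E5.5 pair. The sterol isomerase Ebp showed the same imbalance, with -1.06 in the E3.5 pair and -0.29 in the E5.5 pair. Nsdhl and Hsd17b7, which act in removing methyl groups from lanosterol, differed by -0.36 ± 0.31 and 0.07 ± 0.26 in EpiSCs (SE, limma adjusted p = 0.54 and 0.89). Tm7sf2, a sterol reductase, differed by -0.15 ± 0.57 (limma adjusted p = 0.89).

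Of the feedback genes, Insig1 had the largest EpiSC difference of any member by the setting used and Srebf2 the smallest. Insig1 had levels of -1.497 and -0.02 in treated E3.5 and E5.5 EpiSCs, against 0.89 and 1.21 in untreated ones, and 0.40 in treated against 0.89 in untreated mES cells. All 3 treated arrays lay below all 3 untreated arrays, but the treated EpiSC lines lay far apart. The EpiSC difference was -1.81 ± 0.55 (SE, limma adjusted p = 0.19), with an adjusted p of 0.075 when the line was a block. A further Insig1 probe gave -1.62. Insig2, the paralog that also retains Scap, had 0.68 and 0.55 in treated EpiSC lines, against 1.15 and 1.24 in untreated lines, and 0.70 in both mES arrays.

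Srebf2, whose product acts mainly on sterol genes, had levels of 0.57 and 0.58 in treated E3.5 and E5.5 EpiSCs, against 0.54 and 0.52 in untreated ones. Its EpiSC difference was 0.04 ± 0.25 (SE, limma adjusted p = 0.93), and was negative at -0.07 under normexp background correction. A further Srebf2 probe gave -0.56, so the probes disagreed in sign. Srebf1, whose product acts on fatty acid genes, had 2.11 and 3.09 in treated EpiSC lines, against 3.16 and 3.32 in untreated ones. Most of that difference lay in the E3.5 pair (-1.04, against -0.23 in the E5.5 pair). Scap differed by -0.04 in the E3.5 pair and by 0.49 in the E5.5 pair. Stard4, a carrier of cholesterol between membranes, had 1.496 and 1.961 in treated EpiSC lines, against 2.80 and 2.83 in untreated lines. Its groups were well separated, with a difference of -1.08 ± 0.29 (SE, limma adjusted p = 0.16), and its 3 probes gave -1.08 to -1.05. By pair the probes differed more. The probe used gave -1.30 in the E3.5 pair and -0.87 in the E5.5 pair, where both other probes gave -1.57 and -0.54.

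**Figure D2:**
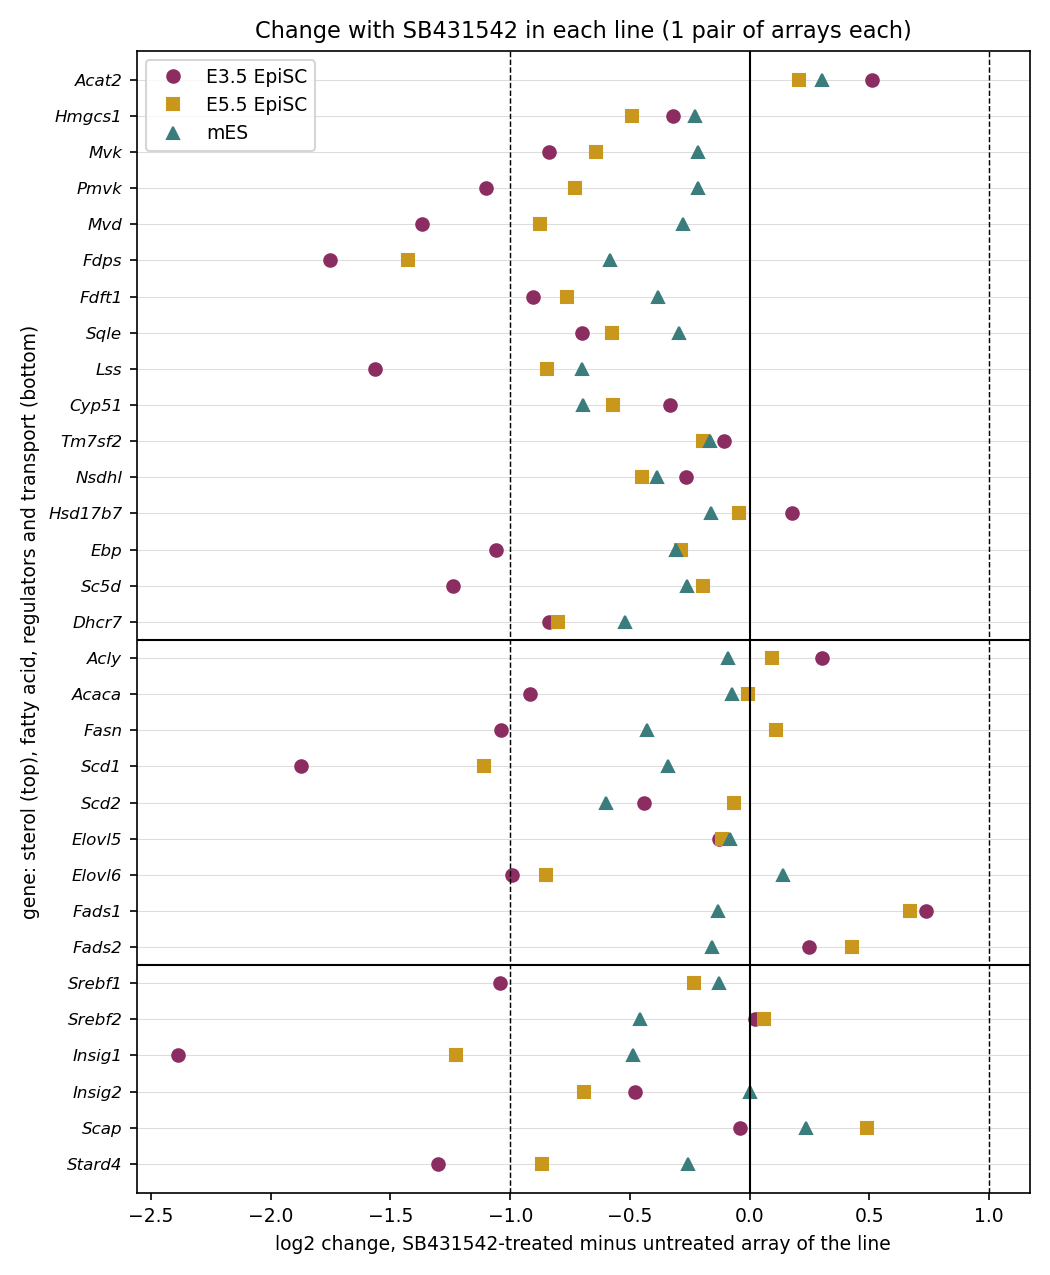
Log2 difference between the treated and the untreated array of each line, for each of the 31 members (rows), with circles for E3.5 EpiSCs, squares for E5.5 EpiSCs and triangles for mES cells. Dashed lines mark a 2-fold difference, which no mES triangle reaches, and 21 of 31 genes have all 3 marks left of 0.

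The enzymes of fatty acid synthesis did not share a direction in EpiSCs. Acly, which supplies cytosolic acetyl-CoA, had levels of 1.14 and 0.94 in treated E3.5 and E5.5 EpiSCs, against 0.84 and 0.84 in untreated ones. Acaca, acetyl-CoA carboxylase, had -0.84 and 0.03 in treated lines, against 0.08 and 0.04 in untreated lines, so only the treated E3.5 line lay clearly apart. Fasn, the fatty acid synthase, had 5.29 and 6.10 with SB431542, against 6.33 and 5.99 without. The difference was -1.04 in the E3.5 pair and 0.11 in the E5.5 pair. A further Fasn probe gave 0.04 and 0.27 for these pairs, so the low value in the E3.5 pair came from 1 of 2 probes.

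Desaturases and elongases differed among themselves. Scd1, a desaturase that makes oleate, had levels of -1.62 and -1.09 in treated E3.5 and E5.5 EpiSCs, against 0.26 and 0.02 in untreated ones, and -1.03 in treated against -0.69 in untreated mES cells. Its EpiSC groups were far apart, and its difference was -1.49 ± 0.31 (SE, limma adjusted p = 0.10, and 0.081 with the line as a block). Scd2, the isoform of that desaturase prominent in mouse brain, differed by only -0.25 ± 0.31 (limma adjusted p = 0.66), and by 0.09 after quantile normalization. Elovl6, which elongates palmitate, had 1.92 and 2.14 in treated EpiSC lines, against 2.91 and 2.99 in untreated lines, but 2.85 in treated against 2.71 in untreated mES cells. Elovl5, an elongase of polyunsaturated chains, differed by -0.12 ± 0.28 (limma adjusted p = 0.82), and its 2 probes disagreed in sign.

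The 2 front-end desaturases of polyunsaturated fatty acids were at higher levels in treated EpiSCs. Fads1 had levels of 1.27 and 0.96 in treated E3.5 and E5.5 EpiSCs, against 0.53 and 0.29 in untreated ones, and -0.12 in treated against 0.01 in untreated mES cells. The EpiSC difference was 0.70 ± 0.28 (SE, limma adjusted p = 0.27), the most positive of any member. Fads2 had 1.03 and 1.58 in treated EpiSC lines, against 0.78 and 1.15 in untreated lines, which overlapped.

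Taken line by line, the E3.5 pair held the most members past 2-fold. In that pair 11 of 31 members were at least 2-fold lower (background 19.6%) and 0 were at least 2-fold higher (background 11.4%). In the E5.5 pair, which shared a slide, 0 were at least 2-fold higher (background 6.46%). There 3 of 31 (9.68%) were at least 2-fold lower, a share near the background of 8.77%, namely Fdps, Scd1 and Insig1. These 3 were past 2-fold in both EpiSC pairs (background 6.01%). In the mES pair no member passed 2-fold in either direction, where the background was 1.13% lower and 1.41% higher. Single pairs of arrays carry no test. By the mean of both EpiSC pairs, no member was at least 2-fold higher (background 8.46%) and 6 members were at least 2-fold lower (background 12.6%): Mvd, Fdps, Lss, Scd1, Insig1 and Stard4.

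Across the 3 lines, sterol genes lay below the middle of all genes tested. The median difference over the 16 sterol genes was -0.84 in the E3.5 pair, -0.57 in the E5.5 pair and -0.29 in the mES pair, against -0.31, -0.06 and 0.02 over all genes tested. Sterol genes were lower with SB431542 in all 3 lines in 14 of 16 cases (background 22.3%), the exceptions being Acat2 and Hsd17b7. That count was 13 after normexp, where 4230 of all 16153 genes tested were lower in all 3 lines. It was 12 after quantile normalization, where 3686 of all genes were. Of the fatty acid genes, 4 of 9 were lower in all 3 lines. Under normexp, quantile normalization or the mean of all probes this was 2 of 9, a share near the background. Acaca was among the 4 with only -0.005 in the E5.5 pair, and its further probes gave 0.19, 0.18 and 0.08 in the mES pair. Of the regulators and carriers, 3 of 6 were lower in all 3 lines, and 4 of 6 in each of those other settings. The sterol median lay below that of all genes tested in EpiSCs by every scaling tried: the distance was -0.50, and -0.31 under normexp, which moved the median of all genes to -0.33. The distance of the fatty acid median was -0.06, 0.12 under normexp and 0.13 after quantile normalization, so its direction depended on the scaling.

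**Figure D3:**
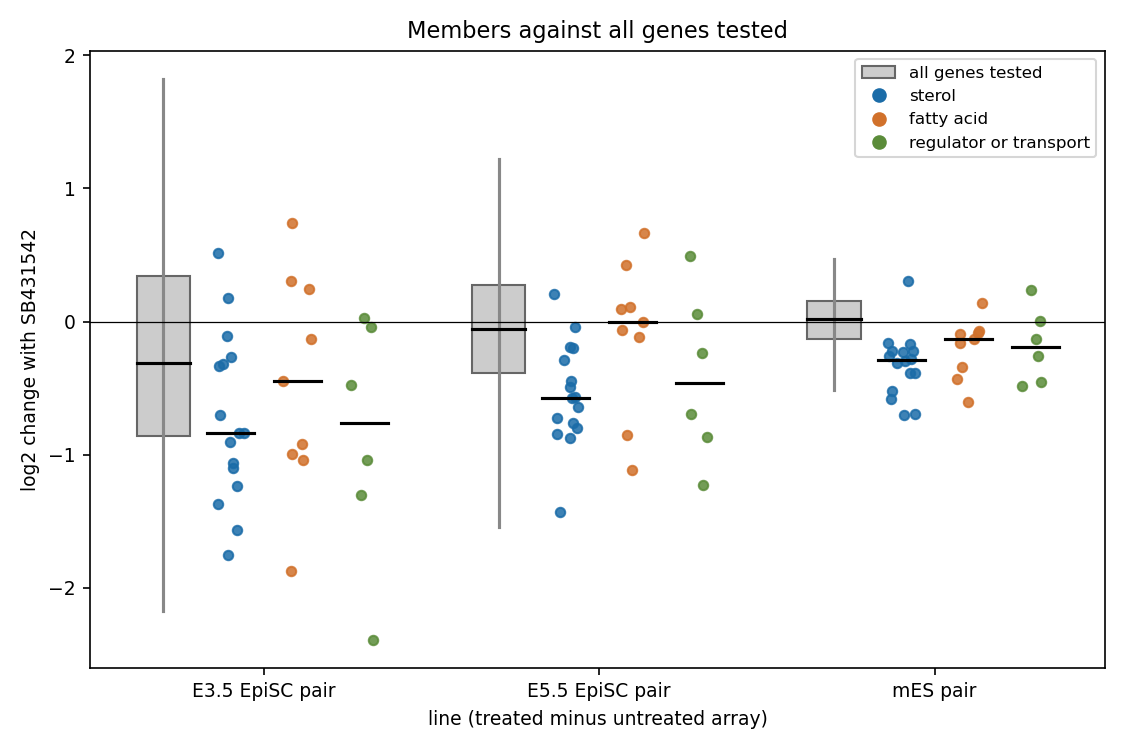
Log2 difference between treated and untreated arrays of each line, with members as dots by class and black bars at each class's median. Grey boxes span the 25th to 75th percentile of all genes tested and grey lines the 5th to 95th. In the mES pair the sterol median of -0.29 lies under the box, whose lower edge is -0.13.

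When all 3 lines were fitted together with the line as a term, no gene passed the test in either direction (0% each way). At an unadjusted p under 0.05, 8 members were lower (background 5.2%) and none was higher (background 3.44%). Their lowest adjusted p was 0.50 (limma). Fdps had the smallest p of the members there, with a difference of -1.26 ± 0.30 (SE). Whether EpiSCs and mES cells differed in their response was tested as a difference of differences. No gene passed that test either, and 0 members had an unadjusted p under 0.05, against backgrounds of 3.67% lower and 3.21% higher. Elovl6 had the smallest p of any member, at -1.06 ± 0.46 (SE, limma adjusted p = 0.78), and Insig1 had -1.32 ± 0.96 (limma adjusted p = 0.87). With 1 mES array per arm, the standard errors are large, and a missed threshold does not show that the lines responded alike.

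To ask how the cell classes differ without the inhibitor, the untreated EpiSC lines were compared with the untreated mES array. This comparison shares the untreated EpiSC arrays with the one above. Sterol genes were mostly at slightly higher levels in EpiSCs: 14 of 16 estimates were positive, against 7458 of all 16153 genes tested. The sterol median was 0.45, against -0.06 over all genes tested. The fatty acid median was 0.40, with 8 of 9 estimates positive, and that of regulators and carriers was 0.15. No member passed the test, where 63 genes were called higher (0.39%) and 179 lower (1.11%). The lower calls made up 74.0% of all calls, 63.1% under normexp and 54.4% among genes above background on all 6 arrays. Without either treated EpiSC array, 0 genes were called. At an unadjusted p under 0.05, 2 members were higher (background 8.47%) and none was lower (background 7.89%).

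Over all 4 EpiSC arrays and both mES arrays, 6 of 31 members (19.4%) were higher in EpiSCs without overlap, a share near the background of 19.1%. They were Hmgcs1, Hsd17b7, Scd2, Elovl5, Fads1 and Fads2. The gap for Hmgcs1 was narrow, with 4.39 in treated E5.5 EpiSCs against 4.35 in untreated mES cells. Hsd17b7 had levels of 2.38 and 2.20 in treated and untreated E3.5 EpiSCs and of 2.22 and 2.26 in treated and untreated E5.5 EpiSCs, against 0.86 and 1.02 in treated and untreated mES cells. The EpiSC arrays of Hsd17b7 lay close together and well above mES cells, with an untreated difference of 1.21 ± 0.32 (SE, limma adjusted p = 0.17). Scd2 had levels of 5.13 and 5.58 in treated and untreated E3.5 EpiSCs and of 4.97 and 5.03 in treated and untreated E5.5 EpiSCs, against 3.37 and 3.97 in mES cells with and without SB431542. Its untreated difference was 1.33 ± 0.38 (SE, limma adjusted p = 0.20). A further Elovl5 probe gave an untreated difference of -0.09, where the probe used gave 0.71. The fibroblast sum was 95.5 and 119.5 in untreated EpiSC lines, against 35.3 in untreated mES cells, and its part in these values was not tested. Of the 10 markers, 5 were lower in the untreated E3.5 line than in mES cells, and 0 in the untreated E5.5 line.

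In the opposite direction, 2 members were lower in all 4 EpiSC arrays than in both mES arrays (background 31.2%). Fdft1 differed by -1.20 ± 0.68 between untreated EpiSCs and mES cells (SE, limma adjusted p = 0.50), since its untreated level was 2.36 in the E3.5 line and 1.22 in the E5.5 line, against 2.99 in mES cells. A further Fdft1 probe gave -0.53. Acly differed by -0.62 ± 0.32 (SE, limma adjusted p = 0.45), with almost the same level in both untreated EpiSC lines. Insig1 and Srebf1 had untreated differences of 0.16 ± 0.68 and -0.03 ± 0.50 (SE, limma adjusted p = 0.95 and 0.99).

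**Figure D4:**
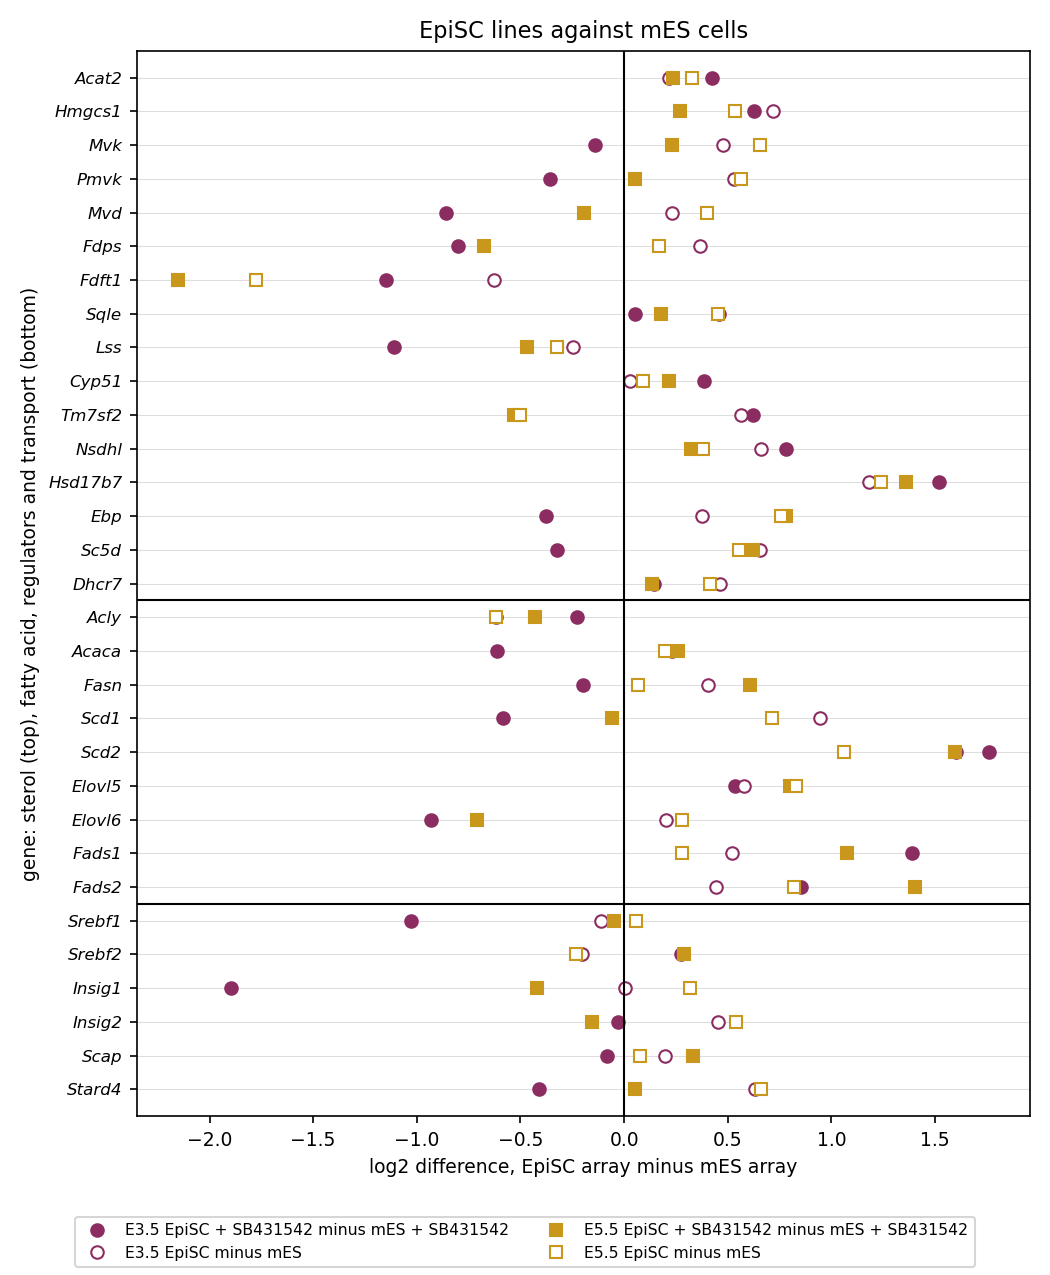
Log2 difference between each EpiSC array and the mES array of the same treatment for each of the 31 members (rows), with circles for the E3.5 and squares for the E5.5 line, filled for treated and open for untreated cells. Hsd17b7 and Scd2 have all 4 marks past 1, and Fdft1 has all 4 left of 0. For Mvd and Fdps the filled marks lie left of 0 and the open marks right of it. For Insig1 the filled marks lie left of 0, the open circle lies at 0.005 and the open square at 0.32.

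Between the EpiSC lines, E5.5 was set against E3.5 with treatment as a term. The members had a median difference of 0.15, against 0.12 over all genes tested, and no gene passed the test. At an unadjusted p under 0.05, 2 members were lower in E5.5 (background 2.54%), Tm7sf2 and Fdft1, and none was higher (background 5.32%). Tm7sf2 had levels of 0.74 and 0.94 in treated and untreated E5.5 EpiSCs, against 1.895 and 2.004 in treated and untreated E3.5 EpiSCs. Both E5.5 levels lay below the mES levels of 1.27 with and 1.44 without SB431542, and both E3.5 levels lay above them. The line differences were -1.11 ± 0.23 for Tm7sf2 and -1.08 ± 0.27 for Fdft1 (SE, limma adjusted p = 0.51 and 0.52). The E5.5 and E3.5 arrays lay on different slides, so line and slide cannot be told apart.

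A further 33 genes of the same pathways, including sterol efflux, esterification, elongation and the NF-Y and Sp1 factors, were listed besides the members, and 32 were measured. None passed the test of SB431542 in EpiSCs or of the cell classes. Both treated EpiSC levels lay below both untreated levels for 19 of the 32 (background 36.6%) and above them for 6 (background 20.5%). Their median difference was -0.38, against -0.19 over all genes tested, and 12 were lower in all 3 lines (background 22.3%).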

How the data were processed

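Cy3-labelled cRNA made from the total RNA of 6 samples was read on 1-colour Agilent arrays, per the labels' protocols. Per the file headers, the deposited spot intensities are linear and were corrected for background and spatial trend with Feature Extraction 10.7.1.1. The submitters' processing notes give version 9.1 instead, and the files do not settle which was used. The deposited value table holds the same intensities. Marks for spots above background or outlying came from the same program, per the file headers.

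Outlier and control spots were left out, repeat spots averaged, and log2 processed signal was taken minus the array's 75th percentile. The files hold no gene names, so probes were named through their transcript accession and the RefSeq gene table of GRCm38.p6 (24375 of 41174 probes). Each gene was read from its probe of highest mean signal. Tests covered the 16153 of 17016 genes that at least 1 array showed well above background.

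Models were fitted with lmFit and eBayes of limma 3.58.1 (R 4.3.3), with Benjamini-Hochberg adjustment over all genes tested. No group has a second array, so the EpiSC lines served as replicates of their class over 6 arrays (2 residual degrees of freedom), under the assumption that the single mES arrays have the same spread. The labels do not say whether arrays are separate cultures. A p-value therefore reflects only how these samples vary, which may be technical. With so few degrees of freedom, eBayes moves each gene's spread toward that of all genes tested. An SE is therefore not the scatter between the lines alone. For Srebf2 it was 0.25, although the treated levels lay close together and so did the untreated ones. The line pairs treated with untreated arrays, by its name in the labels. Groups came from the labels. Scripts were tested on simulated data. The members, lists and markers were chosen with earlier results of these data known. All 31 members are named in the text. Background correction, normalization, probe choice, filters, slide, pairing and single arrays were varied.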

Additional observations from a re-analysis of the deposited data

Results flagged for a closer look

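Fasn, the fatty acid synthase, differed in opposite directions between the EpiSC lines with SB431542, by -1.04 on the log2 scale in the E3.5 pair and by 0.11 in the E5.5 pair. The difference between the lines was not tested, since each rests on 1 pair of arrays, and the arrays of the E3.5 pair lay on separate slides. A further Fasn probe gave 0.04 and 0.27 in these pairs.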

How the results depend on the processing

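No member passed the test in any of the 5 comparisons under normexp, quantile normalization, the mean of all probes, no filter, the deposited value table or any left-out array. The exception was the filter on genes above background on all 6 arrays, which called 1 member, Fdps. The deposited value table holds the same intensities, so its fit repeats the main one and is no separate check. Leaving out an mES array cannot change the test of SB431542 in EpiSCs, since a lone array in its arm adds no spread. Without either treated EpiSC array, 0 genes of the whole table were called for SB431542 in EpiSCs or between the cell classes, so no member could be called there. With the line as a replicate block, 0 members were called in treated against untreated EpiSCs and 0 in the difference of responses, and without that block 0 were called across the lines, so it changed no member's call; it moved the count over all genes to 903, against 338. That count was 540 with genes above background on all 6 arrays, fewer genes being tested, 470 under normexp, and 0 to 338 over left-out arrays. The slide as a random block could not be fitted for any comparison. The difference of responses without either mES array, and the cell classes without the untreated mES array, could not be fitted. Naming by a gene name column was not run, since the files used here hold none.

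The medians of SB431542 in EpiSCs kept their sign except that of the fatty acid genes, which was 0.018 after quantile normalization. Leaving out 1 array at a time gave -0.76 to -0.59 for sterol genes, -0.48 to -0.02 for fatty acid genes and -0.82 to -0.40 for regulators and carriers. Across the lines the fatty acid median ran from -0.43 to -0.10, and was -0.10 within slide 1; the sterol median ran from -0.70 to -0.43. For untreated EpiSCs against mES cells the sterol median was 0.51 after quantile normalization, 0.37 with the mean of all probes and 0.41 to 0.46 over left-out arrays, and the fatty acid median ran from 0.28 to 0.45.

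Single members that changed sign in EpiSCs with SB431542 were Srebf2 (-0.065 under normexp, -0.26 with all probes averaged), Scd2 (0.089 after quantile normalization, 0.017 to -0.53 over left-out arrays) and Elovl5 (0.018 after quantile normalization, 0.037 with all probes averaged, -0.25 to 0.011 over left-out arrays). Over left-out arrays, Hsd17b7 ran from -0.013 without the treated E3.5 array to 0.15, and Tm7sf2 from -0.73 to 0.43. Between cell classes, Tm7sf2 gave -0.041 under normexp and -0.50 to 0.57 over left-out arrays, and Srebf1 gave 0.054 after quantile normalization and -0.11 to 0.056 over left-out arrays. The cause of these shifts was not tested.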

Other observations

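Among the 32 related genes measured, those of sterol handling beyond synthesis differed widely, and the genes named here were chosen after their values were seen. Abca1, a cholesterol efflux transporter, had levels of -1.07 and -2.39 in treated E3.5 and E5.5 EpiSCs, against -3.69 and -3.42 in the untreated lines, a difference of 1.82 ± 0.51 (SE, limma adjusted p = 0.16). Abcg1, a further sterol transporter, differed by 2.33 in the E3.5 pair and by 0.36 in the E5.5 pair. Soat1, which esterifies cholesterol for storage, had -0.31 and 1.13 in treated EpiSC lines, against 2.25 and 2.17 in untreated ones, a difference of -1.80 ± 0.54 (SE, limma adjusted p = 0.18). In mES cells these genes differed by 0.22, 0.06 and -0.23 with SB431542.

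Me1, malic enzyme, which supplies NADPH for lipid synthesis, had -2.24 and -1.19 in treated E3.5 and E5.5 EpiSCs, against 0.13 and 0.04 in untreated ones, a difference of -1.80 ± 0.43 (SE, limma adjusted p = 0.13). Mlxipl, which encodes a glucose-responsive activator of lipogenic genes, had -0.78 and -0.71 in treated lines, against 0.65 and 0.41 in untreated lines, and differed by -1.27 ± 0.26 (SE, limma adjusted p = 0.10). In the mES pair Me1 differed by 0.03 and Mlxipl by -0.19. None of these genes passed the test.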
